A study of Mus musculus with 21 samples.

Results

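The complement genes described here are C1qa, C1qb, C1qc, C4b, C3, Cfb, Cfp, C3ar1 and C5ar1, 9 of the 54532 genes in the deposited count table. They were taken by name, as a list of complement components and receptors, and were read in all 21 RNA-seq libraries, made from myeloid cells that were sorted out of adipose tissue of male C57BL/6 mice. The libraries form 7 groups of 3. After 16 weeks of high fat diet (HFD), obese mice gave monocyte-derived cells, MHCII+CD11c+ macrophages, MHCII+CD11c- macrophages and MHCIIlow macrophages. After 16 weeks of normal diet (ND), lean mice gave monocyte-derived cells, MHCII+CD11c- macrophages and MHCIIlow macrophages. The macrophage sets are called CD11c-positive, CD11c-negative and MHCII-low from here on. Tissue of every group was digested with collagenase, cells were sorted on a flow cytometer, RNA was isolated with a PicoPure kit and libraries were made with a NuGen Ovation kit. The labels state neither the age of the mice nor the fat depot. They do not say that the 3 libraries of a group are separate animals, so p-values measure the spread between these samples.

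Complement is a set of proteins that bind to microbes, dying cells and immune complexes and then cut one another in a cascade. C1qa, C1qb and C1qc encode the chains of C1q, the recognition part of the classical pathway, which leads to the cutting of C4 and then of C3. C3 is the point where all pathways meet, factor B (Cfb) and properdin (Cfp) belong to the alternative pathway that amplifies C3 cutting, and C3ar1 and C5ar1 are the receptors of the small fragments C3a and C5a. Tissue macrophages are a known source of C1q.

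Library totals ran from 11245851 to 35568948 counts, with the lowest in lean monocyte-derived replicate 3. Sort markers followed the labels in the obese macrophage sets compared here. Itgax, which encodes CD11c, averaged 586 ± 92.5 CPM (read counts relative to the TMM-scaled library total) in obese CD11c-positive macrophages, against 85.0 ± 22.2 CPM in obese CD11c-negative and 44.5 ± 20.1 CPM in obese MHCII-low macrophages (SD, n = 3 each). H2-Ab1, an MHC class II chain, averaged 1705 ± 492 CPM in obese CD11c-positive macrophages, against 346 ± 89.9 CPM in obese MHCII-low macrophages. Some libraries stood apart from their group. Summed over 12 macrophage markers, lean monocyte-derived replicate 2 had 8512 CPM, while replicates 1 and 3 had 3892 and 3045 CPM. Over 10 monocyte markers it had 16036 CPM, while the other replicates had 5007 and 4451 CPM. Summed over 14 fibroblast markers, the library numbered 2 was the highest of each obese group, at 2097 to 2955 CPM, while the obese libraries numbered 1 and 3 had 958 to 1601 CPM. No marker of these 3 lists was at 0 in any group, and the part of these differences in the results was not tested. Results that rest on these libraries are given with and without them where a call or value moved.

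The 3 C1q chains and both receptors were high in every macrophage group and low in monocyte-derived cells of both diets. C4b differed between the macrophage groups themselves, C3 and Cfp varied less, and Cfb had few reads. Most exon bases of Cfb are shared with another gene, so its level is uncertain. In bulk RNA of a sorted population, fewer cells of a type and less RNA per cell cannot be told apart.

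**Figure D1:**
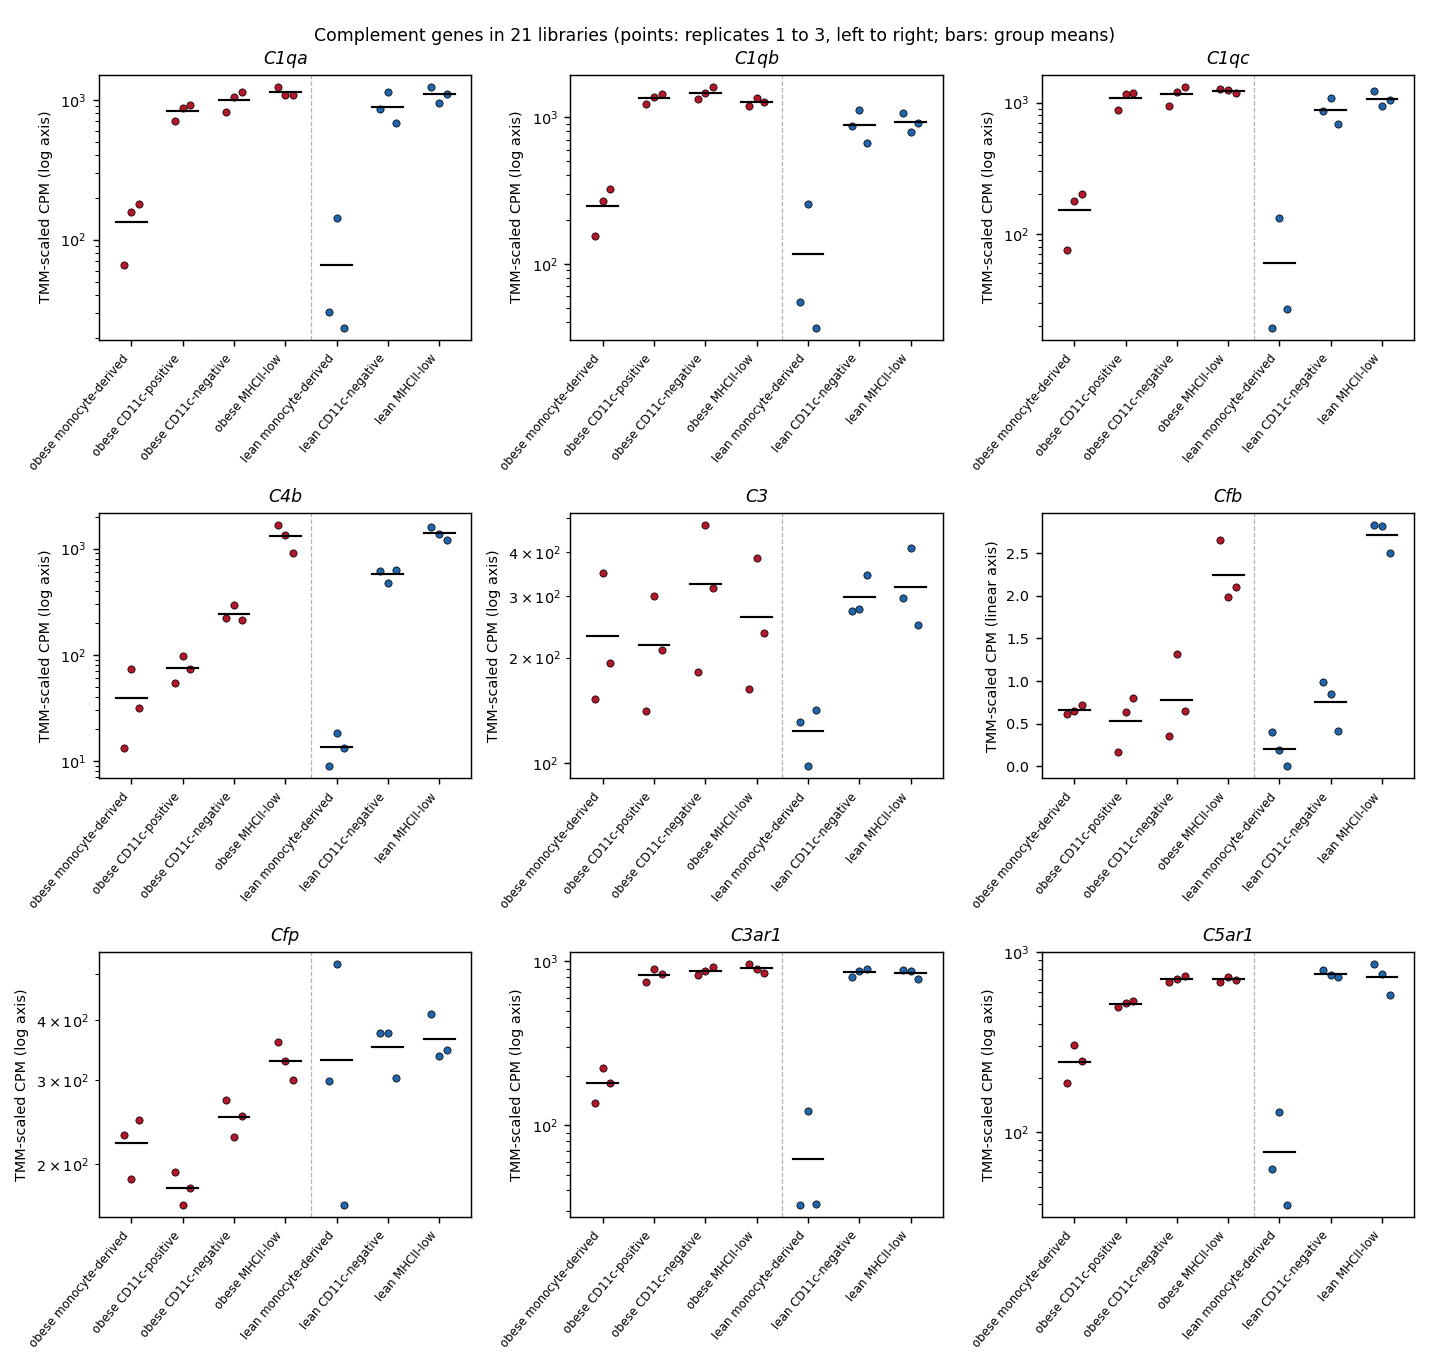
TMM-scaled CPM of the 9 members in 21 libraries (log axes, except a linear axis for Cfb), obese groups in red left of lean groups in blue, with points for replicates 1 to 3 and bars for group means. C1qa averaged 134 CPM in obese monocyte-derived cells and 1135 CPM in obese MHCII-low macrophages, while C3 libraries of most groups overlapped.

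The C1q genes lie side by side on the minus strand of chromosome 4 (GRCm38), within 18675 bases. C1qb is at chr4:136880129-136886187, C1qc at chr4:136889804-136893065 and C1qa at chr4:136895917-136898803. C1qa read 65.7, 157 and 180 CPM in obese monocyte-derived cells. It read 704, 868 and 921 CPM in obese CD11c-positive, 818, 1045 and 1133 CPM in obese CD11c-negative, and 1241, 1082 and 1080 CPM in obese MHCII-low macrophages. In lean mice it read 30.2, 143 and 23.5 CPM in monocyte-derived cells, 865, 1127 and 680 CPM in CD11c-negative, and 1233, 946 and 1104 CPM in MHCII-low macrophages. Every macrophage library thus lay above every monocyte-derived library, and each macrophage group overlapped its neighbours in the order of means.

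C1qb read 154, 267 and 325 CPM in obese monocyte-derived cells. In obese macrophages it read 1225, 1365 and 1431 CPM in the CD11c-positive, 1329, 1461 and 1614 CPM in the CD11c-negative, and 1183, 1341 and 1265 CPM in the MHCII-low set. Lean monocyte-derived cells had 54.8, 257 and 36.6 CPM, lean CD11c-negative macrophages 863, 1124 and 663 CPM, and lean MHCII-low macrophages 1070, 795 and 910 CPM. For this chain all obese macrophage libraries were above all lean ones. How many other genes separate this way was not counted. The edgeR test described below did not call C1qb for diet in MHCII-low (adjusted p = 0.494) or CD11c-negative macrophages (0.252). Of all genes 30.7% and 32.4% were called there. C1qc averaged 152 ± 67.4 CPM in obese monocyte-derived cells and 1077 ± 167 to 1226 ± 46.8 CPM in the obese macrophage groups. It averaged 59.8 ± 63.7 CPM in lean monocyte-derived cells, and 880 ± 199 and 1072 ± 139 CPM in lean CD11c-negative and MHCII-low macrophages (SD, n = 3 each). Per kilobase of exon, so that genes can be set beside each other, mean levels in obese MHCII-low macrophages were 1090 CPM per kb for C1qa, 1160 CPM per kb for C1qb and 635 CPM per kb for C1qc.

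Differences were tested with edgeR's quasi-likelihood test on all 21 libraries, and a gene was called where its p, adjusted by Benjamini-Hochberg over 22935 tested genes, was under 0.05. Folds are fitted values, with a standard error (SE) on the log2 scale. All 9 members passed the filter on low counts. In obese mice 5 of 9 members were lower in monocyte-derived cells than in CD11c-positive macrophages, where 19.4% of all tested genes were called lower. Against CD11c-negative macrophages 6 of 9 were lower, with 12.8% of all genes, and against MHCII-low macrophages 7 of 9, with 17.5% of all genes. In lean mice 8 of 9 were lower in monocyte-derived cells than in CD11c-negative macrophages, with 20.1% of all genes, and 8 of 9 were lower than in MHCII-low macrophages, with 21% of all genes. No member was called higher in monocyte-derived cells. Cfp was the member with no call in either lean comparison.

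The C1q chains were called in each of these comparisons. C1qa was 6.20-fold lower in obese monocyte-derived cells than in obese CD11c-positive macrophages (log2 -2.63, SE 0.52, adjusted p = 0.000758). It was 7.44-fold lower than in obese CD11c-negative and 8.46-fold lower than in obese MHCII-low macrophages. C1qb was 5.07 to 5.90-fold lower and C1qc 7.10 to 8.09-fold lower in the same 3 comparisons. Without the obese libraries numbered 2, C1qb of obese monocyte-derived cells against MHCII-low macrophages had an adjusted p of 0.0540 at log2 -2.37. In lean mice C1qa was 13.5-fold lower in monocyte-derived cells than in CD11c-negative macrophages (log2 -3.76, SE 0.54, adjusted p = 3.47e-05) and 16.6-fold lower than in MHCII-low macrophages. Without lean monocyte-derived replicate 2, these log2 values were -5.07 and -5.38, and those of C1qb and C1qc lay between -5.58 and -4.29. Macrophage markers moved with these genes. Of 12, 8 were lower in obese monocyte-derived cells than in CD11c-positive macrophages, and their sum was 4581 to 6147 CPM in obese monocyte-derived libraries, against 9602 to 10518 CPM in obese CD11c-positive ones. Markers of some other cell types moved the other way. In the same comparison 10 of 11 dendritic cell markers were higher, with sums of 553 to 1119 CPM in obese monocyte-derived libraries, against 72.3 to 95.2 CPM in obese CD11c-positive ones. Of monocyte markers 9 of 10 were higher (mean sums of 5343 and 1927 CPM). Of T and NK cell markers 7 of 12 were higher (25.7 and 8.26 CPM), and of B cell markers 5 of 9 (108 and 92.0 CPM). The B cell sums of the 2 groups overlapped by library. Endothelial markers (10 of 10) and adipocyte markers (7 of 11, with 1 higher) were lower, as the C1q chains were. In lean mice 7 of 11 dendritic cell markers were higher in monocyte-derived cells than in either macrophage set, with mean sums of 1252 CPM in monocyte-derived cells, 344 CPM in CD11c-negative and 403 CPM in MHCII-low macrophages. None of these markers was at 0 in any group, and the part of all these lists in the differences of the C1q chains and receptors was not tested.

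Promoters are shown for C1qb, C1qc and both receptors, which were called lower in monocyte-derived cells of each diet, and for C3, which was called lower there in lean mice. RefSeq (GRCm38.p6) sequences were on hand for 6 of the 9 members, each from 250 bases before to 50 after the annotated start, on the gene's own strand. Capitals mark motif matches. The sequences are those of C1qb (chr4:136886151-136886450), C1qc (chr4:136892865-136893164), C3ar1 (chr6:122856108-122856407), C5ar1 (chr7:16259289-16259588) and C3 (chr17:57228087-57228386), all on the minus strand.
C1qb: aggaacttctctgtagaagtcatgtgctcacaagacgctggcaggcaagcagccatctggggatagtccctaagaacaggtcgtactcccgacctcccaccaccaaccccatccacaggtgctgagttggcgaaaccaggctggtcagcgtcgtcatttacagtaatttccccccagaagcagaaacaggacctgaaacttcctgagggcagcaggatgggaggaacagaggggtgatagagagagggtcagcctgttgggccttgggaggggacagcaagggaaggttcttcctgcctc
C1qc: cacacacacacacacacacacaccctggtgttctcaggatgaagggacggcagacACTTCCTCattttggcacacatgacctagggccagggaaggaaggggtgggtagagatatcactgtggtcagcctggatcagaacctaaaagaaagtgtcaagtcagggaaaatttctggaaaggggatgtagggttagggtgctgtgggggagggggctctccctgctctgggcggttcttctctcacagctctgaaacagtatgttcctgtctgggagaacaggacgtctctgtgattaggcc
C3ar1: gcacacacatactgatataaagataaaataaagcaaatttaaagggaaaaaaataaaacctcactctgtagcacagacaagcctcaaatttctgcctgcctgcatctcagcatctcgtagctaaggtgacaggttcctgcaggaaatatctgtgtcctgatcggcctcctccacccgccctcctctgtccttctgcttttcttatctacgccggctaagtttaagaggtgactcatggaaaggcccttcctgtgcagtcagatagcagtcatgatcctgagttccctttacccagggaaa
C5ar1: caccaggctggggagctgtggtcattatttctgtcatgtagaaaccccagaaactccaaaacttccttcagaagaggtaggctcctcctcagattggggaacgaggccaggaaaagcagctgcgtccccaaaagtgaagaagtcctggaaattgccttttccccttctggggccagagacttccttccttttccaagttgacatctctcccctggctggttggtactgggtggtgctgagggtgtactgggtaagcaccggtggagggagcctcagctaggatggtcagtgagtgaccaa
C3: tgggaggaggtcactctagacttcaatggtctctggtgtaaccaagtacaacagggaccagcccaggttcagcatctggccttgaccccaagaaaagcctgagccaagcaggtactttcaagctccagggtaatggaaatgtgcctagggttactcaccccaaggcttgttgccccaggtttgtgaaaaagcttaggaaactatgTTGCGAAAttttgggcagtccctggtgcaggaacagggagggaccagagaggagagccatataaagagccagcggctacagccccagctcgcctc
Both strands were searched for GAGGAAGT (PU.1), TTCNNNGAA (STAT), TTGCNNAA (C/EBP), and motifs of the interferon-stimulated response element, NF-kappaB and MAF. GAGGAAGT was found in C1qc on the opposite strand, its first base at -195 from the start, and 3.20% of 32851 promoters of this length hold it. TTGCNNAA was found in C3 at -45, and 10.8% of promoters hold it. The other motifs, held by 0.387% to 8.30% of promoters, had no match in the 6 windows.

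C4b encodes complement C4, cut by the classical and lectin pathways, and lies at chr17:34728380-34743882. It differed most between groups of all members. It read 13.3, 73.5 and 31.7 CPM in obese monocyte-derived cells and 54.1, 96.5 and 72.8 CPM in obese CD11c-positive macrophages. It read 220, 294 and 212 CPM in obese CD11c-negative and 1664, 1335 and 917 CPM in obese MHCII-low macrophages. Lean libraries read 8.90, 18.5 and 13.2 CPM in monocyte-derived cells, 619, 478 and 632 CPM in CD11c-negative, and 1613, 1375 and 1200 CPM in MHCII-low macrophages. The lowest 3 groups overlapped in part, the CD11c-negative groups of both diets stood apart from all others and from each other, and the MHCII-low groups of both diets overlapped.

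Within obese macrophages C4b was the member called in all comparisons. In CD11c-positive against MHCII-low macrophages it was 17.5-fold lower (log2 -4.13, SE 0.47, adjusted p = 2.14e-05), and 3 of 9 members were lower, where 8.42% of all genes were. In CD11c-negative against MHCII-low macrophages it was 5.40-fold lower (log2 -2.43, SE 0.44, adjusted p = 0.00433) and the single member called, where 1.85% of all genes were lower. In CD11c-positive against CD11c-negative macrophages it was 3.25-fold lower (log2 -1.70, SE 0.43, adjusted p = 0.0398), again the single member called, where 2.11% of all genes were lower. This last call was lost when any 1 of the 6 libraries was left out, with adjusted p of 0.106 to 0.183 and log2 values of -1.90 to -1.48. In lean mice no member was called between CD11c-negative and MHCII-low macrophages, where 1.30% of all genes were called. There C4b was at log2 -1.28 (SE 0.42, adjusted p = 0.225), and a fit of these 6 libraries alone called it at log2 -1.29 (adjusted p = 0.000681), with 3.39% of all genes called, as did DESeq2 (adjusted p = 0.0335).

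Monocyte-derived cells had the least C4b. In obese mice they were 33.1-fold below MHCII-low macrophages (log2 -5.05, SE 0.50, adjusted p = 6.29e-07) and 6.13-fold below CD11c-negative macrophages (log2 -2.62, SE 0.45). Without obese monocyte-derived replicate 2, these log2 values were -5.82 and -3.40, and without all obese libraries numbered 2 they were -5.86 and -3.29. Their difference from CD11c-positive macrophages was not called at log2 -0.92 (SE 0.43, adjusted p = 0.0996), and it was called at log2 -1.55 (adjusted p = 0.0107) without the obese libraries numbered 2, where 20.3% of all genes were called. In lean mice they were 103-fold below MHCII-low macrophages (log2 -6.68, SE 0.54, adjusted p = 3.35e-08) and 42.4-fold below CD11c-negative macrophages. C4a is a near-identical neighbour of C4b, and reads that fit both could not be assigned with certainty. It held 0.0238 to 0.0428 reads per C4b read in the macrophage group means, 0.173 in obese and 0.359 in lean monocyte-derived cells.

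C3 (chr17:57203970-57228136) is the component that all pathways cut. It read 152, 348 and 193 CPM in obese monocyte-derived cells, 141, 300 and 210 CPM in obese CD11c-positive, 182, 477 and 316 CPM in obese CD11c-negative, and 163, 384 and 235 CPM in obese MHCII-low macrophages. Lean libraries read 131, 98.0 and 142 CPM in monocyte-derived cells, 271, 275 and 344 CPM in CD11c-negative, and 295, 411 and 247 CPM in MHCII-low macrophages. The library numbered 2 was the highest of each obese group, and the 4 obese groups all overlapped each other. In lean mice every monocyte-derived library was below every macrophage library. C3 was 2.57-fold lower in lean monocyte-derived cells than in MHCII-low macrophages (log2 -1.36, SE 0.39, adjusted p = 0.00933). Against lean CD11c-negative macrophages it was 2.41-fold lower (adjusted p = 0.0152), which was not called without lean monocyte-derived replicate 2 (log2 -1.15, adjusted p = 0.0564) or lean CD11c-negative replicate 3 (log2 -1.16, adjusted p = 0.0507).

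Obese libraries of equal number deviated from their group means together, so the number was also fitted as a block. With the block, C3 was lower in obese CD11c-positive than in CD11c-negative macrophages (log2 -0.54, SE 0.10, adjusted p = 0.00320), against log2 -0.58 (SE 0.38, adjusted p = 0.442) without it. The difference had the same direction in 3 of 3 numbers, and 2 of 9 members were called under the block, where 10.3% of all genes were. C3 was also lower in obese monocyte-derived cells than in CD11c-negative macrophages under the block (log2 -0.48, SE 0.10, adjusted p = 0.00173), with 30.8% of all genes called, against log2 -0.49 (SE 0.38, adjusted p = 0.381) without it. Fibroblast markers moved with C3 in some comparisons but not in all. In the obese CD11c-negative libraries numbered 1, 2 and 3, the 14 fibroblast markers summed to 1330, 2955 and 1601 CPM beside 182, 477 and 316 CPM of C3. Between obese CD11c-positive and CD11c-negative macrophages none of the 14 was called, with a median log2 of -0.46. In lean monocyte-derived cells 10 of the 14 were lower than in MHCII-low macrophages (median log2 -1.39) and 9 lower than in CD11c-negative macrophages (median log2 -1.21). Their sums were 562 to 788 CPM in lean monocyte-derived, 962 to 1387 CPM in lean CD11c-negative and 1125 to 1486 CPM in lean MHCII-low libraries. Their part in the C3 differences was not tested.

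**Figure D2:**
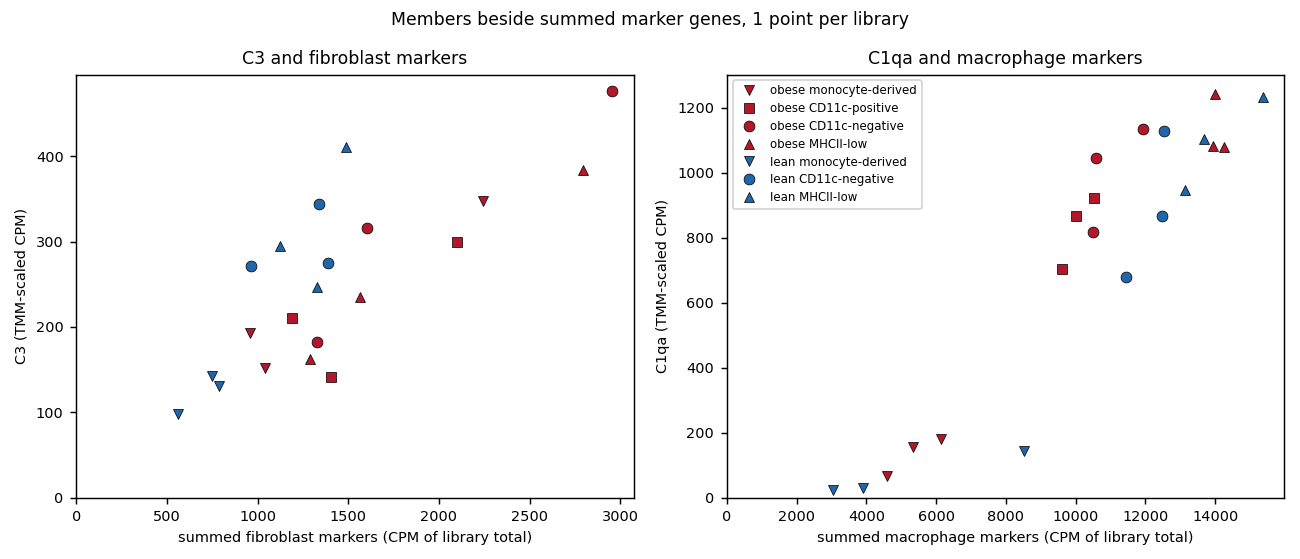
Left, C3 (TMM-scaled CPM) against the sum of 14 fibroblast markers. Right, C1qa against the sum of 12 macrophage markers (both sums in CPM of the library total), 1 point per library. C3 reached 477 CPM in the obese CD11c-negative library with a fibroblast sum of 2955 CPM, and the monocyte-derived libraries, all at or below 180 CPM of C1qa, had the lowest macrophage sums.

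Cfb (chr17:34856374-34862518), the factor that with C3b forms the alternative pathway convertase, had few reads. It read 0.61, 0.646 and 0.717 CPM in obese monocyte-derived cells, 0.166, 0.637 and 0.803 CPM in obese CD11c-positive, 0.350, 1.32 and 0.647 CPM in obese CD11c-negative, and 2.66, 1.99 and 2.10 CPM in obese MHCII-low macrophages. Lean libraries read 0.404, 0.193 and 0 CPM in monocyte-derived cells, 0.989, 0.850 and 0.412 CPM in CD11c-negative, and 2.83, 2.82 and 2.50 CPM in MHCII-low macrophages. These are 0 to 91 reads per library, and the MHCII-low libraries of both diets lay above all others. Cfb was 4.19-fold lower in obese CD11c-positive than in MHCII-low macrophages (log2 -2.07, SE 0.51, adjusted p = 0.0089). That call was lost without obese MHCII-low replicate 1 (adjusted p = 0.0525) and without obese CD11c-positive replicate 1 (adjusted p = 0.0575). It was 3.41-fold lower in obese monocyte-derived cells (adjusted p = 0.0105) and 12.3-fold lower in lean monocyte-derived cells (adjusted p = 6.67e-05) than in MHCII-low macrophages of the same diet. Without lean monocyte-derived replicate 1 the lean log2 value was -4.47, against -3.62 with it. The 3.44-fold lower level in lean monocyte-derived cells than in CD11c-negative macrophages (adjusted p = 0.0331) was not called without lean monocyte-derived replicate 2 (0.0714) or replicate 3 (0.0936), or lean CD11c-negative replicate 1 (0.0874), and stood at log2 -2.61 without lean monocyte-derived replicate 1, against -1.78 with it. In obese CD11c-negative against MHCII-low macrophages Cfb was at log2 -1.53 (adjusted p = 0.112), and it was called with the block on the number (log2 -1.65, adjusted p = 0.0336), where 5.81% of all genes were called. Of its 2825 exon bases, 2246 are shared with the same-strand gene Gm20547, so its level is uncertain. How reads in the shared part were counted is not given, so few reads need not mean low expression.

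Cfp (chrX:20925454-20931555), properdin, which stabilises that convertase, was present in all groups. It read 230, 186 and 247 CPM in obese monocyte-derived cells, 192, 164 and 178 CPM in obese CD11c-positive, 272, 228 and 252 CPM in obese CD11c-negative, and 360, 328 and 300 CPM in obese MHCII-low macrophages. Lean libraries read 299, 526 and 164 CPM in monocyte-derived cells, 376, 377 and 302 CPM in CD11c-negative, and 412, 337 and 346 CPM in MHCII-low macrophages. Within obese macrophages the 3 groups did not overlap, and lean monocyte-derived cells had both the highest and one of the lowest libraries. Cfp was 1.85-fold lower in obese CD11c-positive than in MHCII-low macrophages (log2 -0.89, SE 0.25, adjusted p = 0.0232). The adjusted p was 0.0865 to 0.197 with any 1 of the 6 libraries left out, 0.217 without the obese libraries numbered 2, and 0.00382 with the block. In obese monocyte-derived cells against MHCII-low macrophages it was at log2 -0.58 (adjusted p = 0.0884), and the block called it (log2 -0.58, adjusted p = 0.0254), where 39.2% of all genes were called. In lean monocyte-derived cells against MHCII-low macrophages Cfp was at log2 -0.15 (adjusted p = 0.659). Without lean monocyte-derived replicate 2 the value was -0.69 (adjusted p = 0.00513), with 49.9% of all genes called.

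The receptors followed the C1q chains. C3ar1 (chr6:122847138-122856161), the receptor of C3a, read 136, 224 and 180 CPM in obese monocyte-derived cells. It read 752, 895 and 835 CPM in obese CD11c-positive, 828, 872 and 919 CPM in obese CD11c-negative, and 969, 897 and 851 CPM in obese MHCII-low macrophages. Lean libraries read 32.7, 122 and 32.9 CPM in monocyte-derived cells, 798, 871 and 903 CPM in CD11c-negative, and 887, 868 and 785 CPM in MHCII-low macrophages. Every macrophage library was above every monocyte-derived library, and the 3 obese monocyte-derived libraries were above the 3 lean ones.

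C5ar1 (chr7:16246743-16259540), the receptor of C5a, read 188, 303 and 247 CPM in obese monocyte-derived cells. It read 495, 518 and 532 CPM in obese CD11c-positive, 681, 710 and 738 CPM in obese CD11c-negative, and 684, 727 and 695 CPM in obese MHCII-low macrophages. Lean libraries read 62.6, 130 and 39.6 CPM in monocyte-derived cells, 790, 741 and 721 CPM in CD11c-negative, and 859, 752 and 574 CPM in MHCII-low macrophages. The obese CD11c-positive libraries lay below every other macrophage library, and obese and lean monocyte-derived cells did not overlap. Per kilobase of exon, C3ar1 and C5ar1 averaged 192 and 200 CPM per kb in obese CD11c-positive macrophages, and 41.9 and 95.9 CPM per kb in obese monocyte-derived cells.

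C3ar1 was 4.59-fold lower in obese monocyte-derived cells than in CD11c-positive macrophages (log2 -2.20, SE 0.35, adjusted p = 9.2e-05), 4.84-fold lower than in CD11c-negative and 5.03-fold lower than in MHCII-low macrophages. C5ar1 was 2.09-fold lower (log2 -1.06, SE 0.27, adjusted p = 0.00464), 2.88-fold lower and 2.85-fold lower in the same comparisons. In lean mice C3ar1 was 13.6-fold lower in monocyte-derived cells than in CD11c-negative macrophages (log2 -3.77, SE 0.37, adjusted p = 2.96e-07), and C5ar1 9.66-fold lower (log2 -3.27, SE 0.29, adjusted p = 5.33e-08). Without lean monocyte-derived replicate 2 these log2 values were -4.73 and -3.89, and those against lean MHCII-low macrophages were -4.73 and -3.87, beside -3.75 and -3.23 with it. Between obese CD11c-positive and CD11c-negative macrophages C5ar1 was not called at log2 -0.46 (SE 0.27, adjusted p = 0.367). A fit of these 6 libraries alone called it at log2 -0.48 (SE 0.07, adjusted p = 0.00561), with 3 of 9 members and 17.4% of all genes called.

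The effect of diet was read within each cell set that both diets had. In MHCII-low macrophages none of the 9 members was called between obese and lean mice, where 30.7% of all genes were, and none had an unadjusted p under 0.05 by edgeR. DESeq2 called none either. The log2 values ran from -0.28 for C3 to 0.45 for C1qb. C1qb was called in the fit of these 6 libraries alone (log2 0.37, SE 0.13, adjusted p = 0.0416), where 36.9% of all genes were.

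In CD11c-negative macrophages C4b was the single member called, 2.39-fold lower in obese mice (log2 -1.25, SE 0.42, adjusted p = 0.0323), where 15.6% of all genes were lower. Its 3 obese libraries were all below its 3 lean ones. The call was lost without obese replicate 1, 2 or 3 (adjusted p = 0.103, 0.0644 and 0.122) and without lean replicate 1 or 3 (0.0938 and 0.115), with log2 values of -1.40 to -1.16. C1qb stood at log2 0.73 (SE 0.48, adjusted p = 0.252) and Cfp at log2 -0.49 (SE 0.25, adjusted p = 0.140). In the fit of these 6 libraries alone C1qb was higher (log2 0.70, SE 0.17, adjusted p = 0.00939) and Cfp lower (log2 -0.52, SE 0.11, adjusted p = 0.00535) in obese mice, where 42.8% of all genes were called. Some marker lists were lower in obese CD11c-negative macrophages as well, with 6 of 11 dendritic cell markers (sums of 80.0 to 108 CPM in obese and 305 to 372 CPM in lean libraries) and 6 of 12 T and NK cell markers (mean sums of 9.18 CPM with obesity, against 25.3 CPM without it). Others were not. Of 14 fibroblast markers 3 were higher and none lower (1962 CPM with obesity, against 1230 CPM without it). Of 7 tested mast cell and eosinophil markers 2 were higher and none lower. Of 12 macrophage markers 3 were higher and 4 lower. Their part in the C4b difference was not tested.

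In monocyte-derived cells 3 of 9 members were higher in obese mice, where 7.44% of all genes were. C5ar1 was 3.17-fold higher (log2 1.66, SE 0.28, adjusted p = 0.000808), C3ar1 2.86-fold (log2 1.52, SE 0.34, adjusted p = 0.00847) and C4b 2.90-fold (log2 1.53, SE 0.45, adjusted p = 0.0287). The other members ran from log2 -0.58 for Cfp to 1.58 for Cfb, and C1qc at log2 1.33 had an adjusted p of 0.0809. A fit of these 6 libraries alone called no member, with adjusted p of 0.0792 for C5ar1, 0.147 for C3ar1 and 0.185 for C4b, and 0.634% of all genes.

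Calls and values moved with the libraries used, and so did the share of all genes called, 17.2% in the main fit. Without lean monocyte-derived replicate 2, 6 of 9 members were called higher, where 38.4% of all genes were called in either direction. C1qa then stood at log2 2.36, C1qb at 2.48, C1qc at 2.77, C3ar1 at 2.50 and C5ar1 at 2.31. C4b was not called without lean monocyte-derived replicate 1 (adjusted p = 0.0848) or replicate 3 (0.104), or obese monocyte-derived replicate 2 (log2 0.90, adjusted p = 0.0785). In these fits 14.4%, 7.27% and 16.7% of all genes were called. Without the obese libraries numbered 2, C4b stood at log2 0.80 (adjusted p = 0.139) and C3ar1 at log2 1.39 (adjusted p = 0.0646). There 6.75% of all genes were called. C3 was called without obese monocyte-derived replicate 1 (log2 1.30, adjusted p = 0.0468), with 11.3% of all genes. Cfp was called without lean monocyte-derived replicate 3 (log2 -0.90, adjusted p = 0.00429), with 7.27% of all genes. Marker lists moved as well. Of 14 fibroblast markers 5 were higher and none lower in obese monocyte-derived cells, with sums of 958 to 2242 CPM in obese and 562 to 788 CPM in lean monocyte-derived cells. Of 12 macrophage markers 5 were higher and 2 lower, with sums of 4581 to 6147 CPM in obese and 3045 to 8512 CPM in lean monocyte-derived cells. Of 11 dendritic cell markers 3 were lower and none higher, with sums of 553 to 1119 CPM in obese and 721 to 1733 CPM in lean monocyte-derived cells. Of 12 T and NK cell markers 2 were lower and none higher. Their part in the diet differences was not tested.

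**Figure D3:**
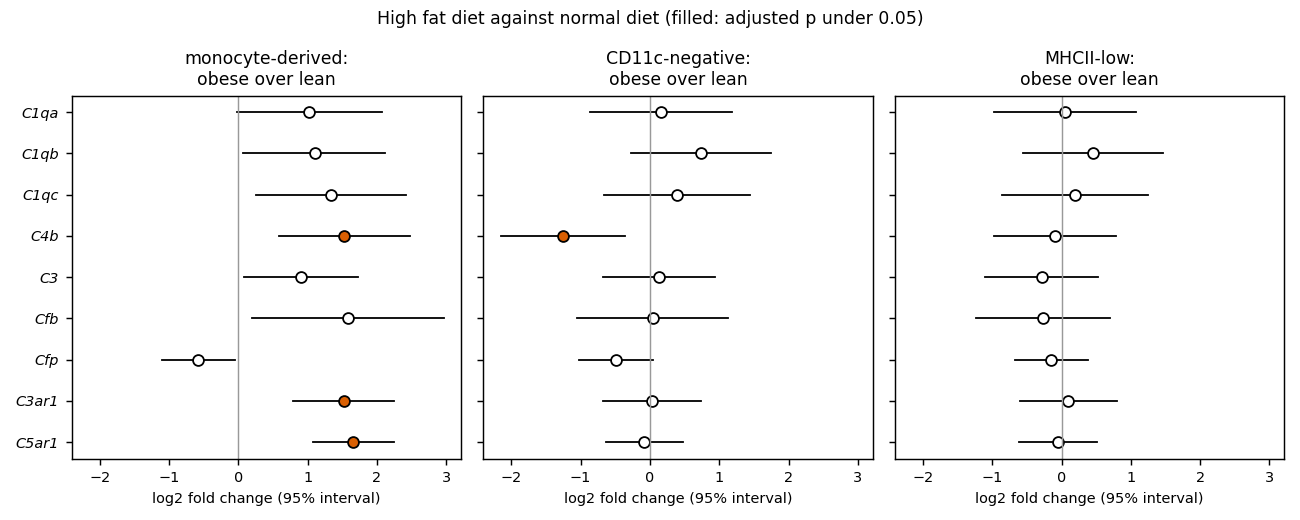
Log2 fold change of each member between obese and lean mice in monocyte-derived cells, CD11c-negative and MHCII-low macrophages, with 95% intervals. Filled points passed an adjusted p of 0.05. C5ar1, C3ar1 and C4b were higher in obese monocyte-derived cells, C4b was lower in obese CD11c-negative macrophages, and no point was filled for MHCII-low macrophages.

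Whether the diet effect differed between cell sets was tested with interaction terms. For monocyte-derived cells against CD11c-negative macrophages 2 of 9 members were called, where 3.85% of all genes were called higher. The difference was log2 2.79 for C4b (SE 0.62, adjusted p = 0.0141) and log2 1.75 for C5ar1 (SE 0.38, adjusted p = 0.0116). C3ar1, at log2 1.49 (adjusted p = 0.0729), was called by DESeq2 (adjusted p = 0.0152). For monocyte-derived cells against MHCII-low macrophages C5ar1 was the single member called (log2 1.72, SE 0.38, adjusted p = 0.0153), where 1.90% of all genes were called higher. C4b was not called there (log2 1.63, SE 0.61, adjusted p = 0.152).

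Without lean monocyte-derived replicate 2, 6 members were called for monocyte-derived cells against CD11c-negative macrophages, where 12.1% of all genes were, and 5 against MHCII-low macrophages, where 9.63% were. All 3 C1q chains were among them, at log2 1.73 to 2.36 and 2.04 to 2.58, and C5ar1 stood at log2 2.37 in both. Without the obese libraries numbered 2, C5ar1 was not called in either (adjusted p = 0.146 and 0.203). C4b kept its call there against CD11c-negative macrophages (log2 2.19, adjusted p = 0.0494), where 1.12% of all genes were called. Fits of the compared libraries alone called C5ar1 in neither. Between CD11c-negative and MHCII-low macrophages edgeR called 0% of all genes for a difference in the diet effect. There 634 genes had an unadjusted p under 0.05, none of them a member, and DESeq2 called none of the members. C4b stood at log2 -1.16 (SE 0.59), so its lower level in obese CD11c-negative macrophages was not shown to differ from its value in MHCII-low macrophages.

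Ratios of reads within a library do not depend on scaling between libraries. Those between the C1q chains had different means in different groups, and none of the 36 comparisons was under 0.05 after adjustment. C1qb averaged 1.95 ± 0.345 reads per C1qa read in obese monocyte-derived cells, 1.62 ± 0.103 in obese CD11c-positive, 1.48 ± 0.123 in obese CD11c-negative and 1.12 ± 0.150 in obese MHCII-low macrophages (SD, n = 3 each). It averaged 1.72 ± 0.144 in lean monocyte-derived cells, 0.990 ± 0.0126 in lean CD11c-negative and 0.844 ± 0.0223 in lean MHCII-low macrophages. The obese libraries were all above the lean ones in both macrophage sets, while those of monocyte-derived cells overlapped. The log2 difference between obese and lean was 0.58 in CD11c-negative and 0.40 in MHCII-low macrophages. Both had an exact two-sided permutation p of 0.1, the smallest that 3 libraries against 3 can give, and 0.157 adjusted over 36 comparisons of 3 ratios.

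C1qc per C1qa read moved the same way by less. It averaged 1.16 in obese and 0.992 in lean CD11c-negative macrophages, and 1.08 in obese and 0.980 in lean MHCII-low macrophages, again without overlap. C3ar1 reads per C5ar1 read averaged 0.730 ± 0.00722 in obese monocyte-derived cells, 1.60 ± 0.108 in obese CD11c-positive, 1.23 ± 0.0147 in obese CD11c-negative and 1.29 ± 0.109 in obese MHCII-low macrophages. The CD11c-positive libraries lay above those of both other obese macrophage sets, by log2 0.38 and 0.31, each at the same smallest exact permutation p of 0.1. In lean mice the ratio averaged 0.764 ± 0.216 in monocyte-derived cells, 1.15 ± 0.124 in CD11c-negative and 1.18 ± 0.170 in MHCII-low macrophages.

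**Figure D4:**
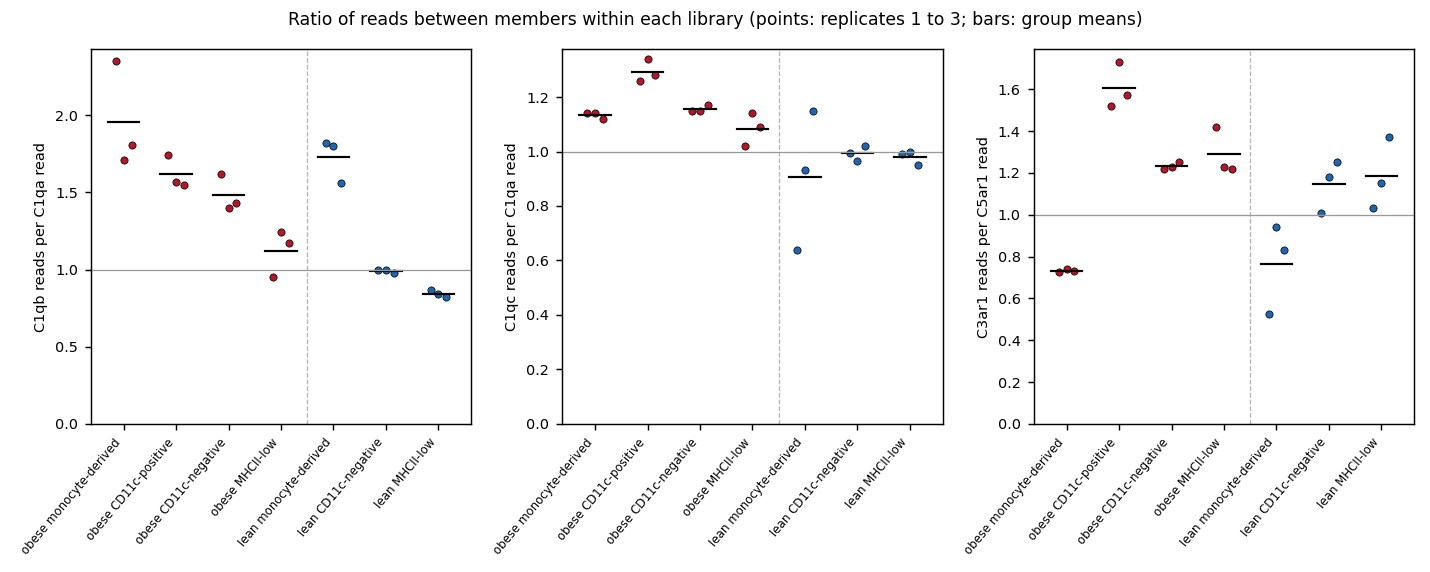
C1qb per C1qa, C1qc per C1qa and C3ar1 per C5ar1 reads in each of 21 libraries, obese groups left of lean groups, with bars for group means. C1qb per C1qa averaged 1.48 in obese and 0.990 in lean CD11c-negative macrophages, with no overlap.

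The wider complement list held 51 genes, of which 42 were not among the 9 members and 38 of those were tested. In monocyte-derived cells 2 of the 38 were higher and 7 lower in obese mice, where 7.44% of all genes were higher and 9.76% lower, with a median log2 of -0.31 beside -0.046 over all genes. Cd93, a surface receptor once named the C1q receptor, averaged 303 CPM in obese and 69.7 CPM in lean monocyte-derived cells (log2 2.12, SE 0.18, adjusted p = 2.16e-07). C5ar2, the other C5a receptor, averaged 15.3 CPM in obese and 4.87 CPM in lean monocyte-derived cells (log2 1.63, adjusted p = 5.35e-05). With C3ar1 and C5ar1, counted above, 4 of the 9 genes of the receptor list were higher and none lower.

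Among macrophages Fcna and C7 were lower in obese mice. In CD11c-negative macrophages 3 of the 38 were higher and 5 lower in obese mice, where 16.8% of all genes were higher and 15.6% lower. In MHCII-low macrophages 3 were higher and 7 lower, where 16.8% of all genes were higher and 13.8% lower, so that the shares lower were near those of all genes. Of 6 tested lectin pathway genes 1 was lower in CD11c-negative and 2 in MHCII-low macrophages, and of 6 terminal pathway genes 1 in each. Fcna, a ficolin that starts the lectin pathway, averaged 24.4 CPM in obese and 203 CPM in lean CD11c-negative macrophages (log2 -3.06, SE 0.48, adjusted p = 0.000208). Fcna of MHCII-low macrophages averaged 257 CPM with obesity, against 604 CPM without it (log2 -1.23, adjusted p = 0.0456). C7, a component of the membrane attack complex, averaged 19.1 CPM in obese and 68.3 CPM in lean CD11c-negative macrophages (log2 -1.83), and 18.1 CPM in obese and 70.5 CPM in lean MHCII-low macrophages (log2 -1.96). Mesothelial markers were lower beside it, 2 of 10 in obese CD11c-negative macrophages (mean sums of 22.0 CPM with obesity, against 43.5 CPM without it) and 8 of 10 in obese MHCII-low macrophages (18.4 CPM with obesity, against 61.0 CPM without it). Of T and NK cell markers 10 of 12 were lower in obese MHCII-low macrophages (9.35 CPM with obesity, against 27.4 CPM without it). The part of these lists in the Fcna and C7 differences was not tested.

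Within obese macrophages Fcna and C6, another component of the attack complex, were lower in both MHCII+ sets than in MHCII-low macrophages. Fcna averaged 12.5 CPM in CD11c-positive and 24.4 CPM in CD11c-negative macrophages, against 257 CPM in MHCII-low macrophages (log2 -4.37 and -3.39). C6 averaged 1.74 CPM in CD11c-positive and 4.94 CPM in CD11c-negative macrophages, against 37.9 CPM in MHCII-low macrophages (log2 -4.45 and -2.94). Between CD11c-positive and CD11c-negative macrophages, where C4b was called lower, Fcna (log2 -0.97, adjusted p = 0.266) and C6 (log2 -1.51, adjusted p = 0.119) were not called. Itgb2, the shared chain of complement receptors 3 and 4, was higher in the CD11c-positive set, with 995 CPM in CD11c-positive and 588 CPM in CD11c-negative macrophages (log2 0.76, SE 0.14, adjusted p = 0.0062). Clu, clusterin, was higher in obese monocyte-derived cells, with 11.9 CPM against 2.08 CPM in obese MHCII-low macrophages (log2 2.52, adjusted p = 0.00206). In lean mice Vsig4, a macrophage receptor of C3b, averaged 6.89 CPM in CD11c-negative and 33.2 CPM in MHCII-low macrophages (log2 -2.27, adjusted p = 0.0150).

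**Figure D5:**
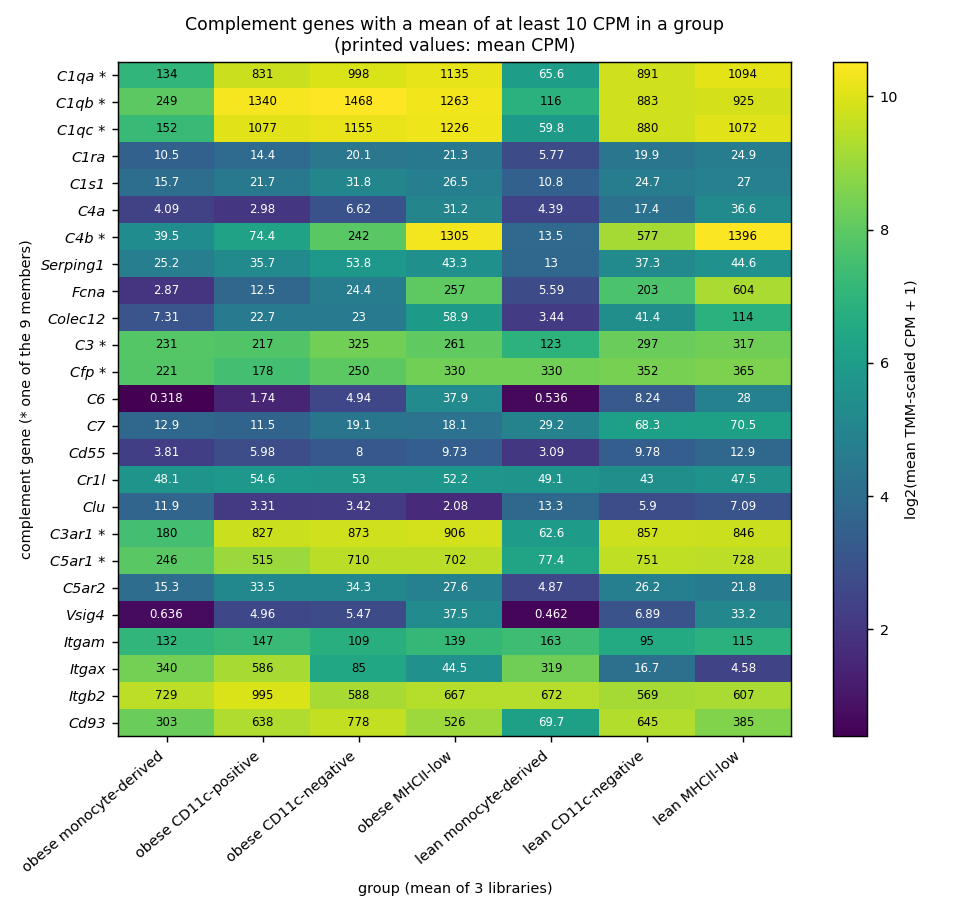
Levels of 25 complement genes that reached 10 CPM in at least 1 group, across the 7 groups, obese left of lean. The C1q chains, C3ar1 and C5ar1 were low in both monocyte-derived groups, while Itgax, which encodes CD11c, averaged 340 and 319 CPM in obese and lean monocyte-derived cells, against 44.5 and 4.58 CPM in obese and lean MHCII-low macrophages. C4b, Fcna and C6 were highest in the MHCII-low groups.

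Across the 21 libraries, which share 7 groups, log2 CPM of the C1q chains ran together with the receptors. Pearson's r was 0.994 between C1qa and C1qc, 0.984 between C1qa and C3ar1 and 0.981 between C3ar1 and C5ar1. C4b had r of 0.846 with C1qa, C3 had 0.538 to 0.668 with the C1q chains, C4b, Cfb and the receptors, and Cfp had -0.045 to 0.463 with all others. Outside the complement lists, 9567 genes were compared with each member. The most alike were Pmp22, Sept8 and Rab31 for C1qa (r 0.987 to 0.990), Cmtm3 and Slc29a1 for C1qb (0.986 each), and Apoe and Tnfsf12 for C1qc (0.991 and 0.988). They were Rab3il1, Abca1 and Apoe for C3ar1 (0.987 each), and Tlr7, Mfsd1 and Lonrf3 for C5ar1 (0.984 to 0.985). For C4b they were Rnase4, Rcn3 and Enpep (0.981 to 0.983), and for C3 Htra3, Antxr1 and Gfpt2 (0.932 to 0.942). Cfb and Cfp had no gene as close, with Ehbp1l1 at 0.888 and Grk6 at 0.890.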

How the data were processed

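RNA-seq of 21 sorted libraries (7 groups of 3, grouped by source label) was analysed from the count table the authors deposited, which holds raw counts per gene. Per the submitters' processing notes, the tools were featureCounts (Subread 1.4.6-p5), the aligner STAR 2.6.0a, the trimmer Trim Galore 0.4.5 and bcl2fastq, and the build was GRCm38. The strand setting and the handling of multi-mapping reads are not given in the sources used here. Gene IDs were matched to GENCODE annotation, 54409 of 54532 with a symbol. From there, genes with low counts were removed with edgeR's filterByExpr, libraries were TMM-scaled, and edgeR 4.0.16 (R 4.3.3) quasi-likelihood tests were fitted on 7 group means, with 14 residual degrees of freedom shared by all groups and Benjamini-Hochberg adjustment over 22935 genes. CPM values are TMM-scaled, and a prior count of 2 was used for log2 CPM. Ratios were tested with exact permutation tests (scipy 1.17.1). On simulated counts for obese against lean MHCII-low macrophages, over 21891 genes, 85% of 100 genes changed 2-fold and 99% of 100 changed 4-fold were recovered. Changed genes were drawn from those with a mean of at least 10 CPM. Otherwise all groups shared a common mean per gene, with no effect of the number. These shares are thus not the power for the members. Cfb averaged at most 2.72 CPM in any group, and the C1q chains had an SE of 0.48 to 0.50 in that comparison.

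Members and gene lists were chosen with earlier results of these data known. All members are named. Of other complement genes, up to 2 higher and 2 lower called genes per comparison with the largest change and at least 10 CPM in the higher group were eligible, and the 3 genes most correlated with each member; 3 of the genes so chosen are not reported here. In 18 of 18 pairs of obese libraries of equal title number, deviations from the group means correlated (r 0.11 to 0.749 over 9596 genes). Of pairs of unequal number, 2 of 36 exceeded 0.1. The main fit ignored this pairing, and only the replicate block alternatives took it into account. Alternatives were DESeq2 1.42.0, its size factors, no filter, the compared libraries alone, replicate blocks, each library left out, and the obese libraries numbered 2 left out. Library totals set the precision of low genes such as Cfb.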

Additional observations from a re-analysis of the deposited data

Results flagged for a closer look

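The effect of obesity differed between cell sets for C4b and C5ar1, by the interaction term of edgeR's quasi-likelihood test over all genes. For C4b the log2 difference between the diet effect in monocyte-derived cells and that in CD11c-negative macrophages was 2.79 (SE 0.62, adjusted p = 0.0141). Its mean in monocyte-derived cells was 39.5 CPM with obesity, against 13.5 CPM in lean mice. Its mean in CD11c-negative macrophages was 242 CPM with obesity, against 577 CPM in lean mice. It was called in 18 of 18 alternatives, with a highest adjusted p of 0.0494.

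For C5ar1 the log2 difference was 1.75 against CD11c-negative macrophages (adjusted p = 0.0116), called in 16 of 18 alternatives, and 1.72 against MHCII-low macrophages (adjusted p = 0.0153), called in 15 of 18. The adjusted p reached 0.146 and 0.203 without the obese libraries numbered 2. In fits of the compared libraries alone C5ar1 was called in neither, with 2.98% and 1.48% of all genes called.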

How the results depend on the processing

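Of 46 called member results, 34 were called in every alternative run. A direction counts as turned where the sign changed and the value exceeded its SE in at least 1 of the fits. The causes of the changes given here were not tested. The replicate block within diet used the title number of obese libraries and the description number of lean ones. With it, 2 members were called in obese CD11c-positive against CD11c-negative macrophages and 2 in obese CD11c-negative against MHCII-low macrophages. The shares of all genes called there were 10.3% and 5.81%. Over the obese and lean comparisons, 77 of 81 member results kept their side of the threshold. With the title number as a block across diets 134 of 135 did, and C3ar1 was called for the diet effect in monocyte-derived cells against CD11c-negative macrophages (log2 1.58, adjusted p = 0.0374). Lean libraries share only a number, since 4 of 9 pairs of equal title number correlated over 0.1 (r -0.274 to 0.507). Lean libraries carry another number in their descriptions, and of the pairs equal in that number 5 of 7 correlated over 0.1 (r 0.0669 to 0.507), against 2 of 20 unequal pairs, which was not every pair either.

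In either direction, members called without the filter on low counts were 1, 4 and 9 for diet in MHCII-low, CD11c-negative and monocyte-derived cells. Of all genes 13.9%, 13.8% and 11.3% were called there. The members called were 2 each in obese CD11c-positive against CD11c-negative, obese CD11c-negative against MHCII-low and lean CD11c-negative against MHCII-low macrophages. Shares of all genes called were 2.86%, 2.42% and 1.26%. For the differences in diet effect the members called were 7 (monocyte-derived against MHCII-low), 6 (monocyte-derived against CD11c-negative) and 1 (CD11c-negative against MHCII-low). Shares of all genes were 3.25%, 4.14% and 0.245%. The median log2 of all genes moved by -0.4 to 0.52 in that fit. In fits of the compared libraries alone, 1, 3 and 0 members were called for diet in MHCII-low, CD11c-negative and monocyte-derived cells. Of all genes 36.9%, 42.8% and 0.634% were called there. Obese CD11c-positive against CD11c-negative and MHCII-low macrophages gave 3 and 5 members, with 17.4% and 27.8% of all genes. Lean CD11c-negative against MHCII-low macrophages gave 2, with 3.39%. The diet effect in monocyte-derived cells against MHCII-low and CD11c-negative macrophages gave 0 and 1, with 1.48% and 2.98%. Without the obese libraries numbered 2, they were 1 for diet in monocyte-derived cells, 0 for obese CD11c-positive against CD11c-negative macrophages, and 0 and 1 for the same 2 differences in diet effect. DESeq2 called 2 members in obese and 2 in lean CD11c-negative against MHCII-low macrophages, and 3 for the diet effect in monocyte-derived cells against MHCII-low macrophages.

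With 1 library left out, the members called ranged from 2 to 6 for diet in monocyte-derived cells, 0 to 1 for diet in CD11c-negative macrophages, 0 to 0 for obese CD11c-positive against CD11c-negative and 1 to 2 against MHCII-low macrophages. They ranged from 2 to 6 and 0 to 5 for the diet effect in monocyte-derived cells against CD11c-negative and MHCII-low macrophages. Uncalled values that turned ranged from -0.58 to 0.39 for Cfb with diet in CD11c-negative macrophages and from -0.91 to 0.12 for Cfb in obese CD11c-positive against CD11c-negative macrophages. For Cfp they ranged from -0.62 to 0.22 in lean monocyte-derived cells against CD11c-negative macrophages, and its difference in diet effect ranged from -0.41 to 0.45 against CD11c-negative and from -0.75 to 0.13 against MHCII-low macrophages.

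Counts over all genes moved by more than 1.5 times in these cases. For diet in monocyte-derived cells they were 122 in the compared libraries alone, 1753 without the obese libraries numbered 2 and 1707 to 9903 with 1 library left out, beside 3946. In obese CD11c-positive against CD11c-negative macrophages they were 51 without the libraries numbered 2, 81 to 393 with 1 left out, 1435 unfiltered, 2230 by DESeq2, 2364 with the block and 3172 alone, beside 801. In obese CD11c-positive against MHCII-low macrophages they were 1517, 1139 to 2066, 5076 with the block and 5143 alone, beside 3284. In obese CD11c-negative against MHCII-low macrophages they were 271, 235 to 363, 1215 unfiltered, 1230 by DESeq2 and 1332 with the block, beside 699. In lean CD11c-negative against MHCII-low macrophages they were 135 to 189, 595 by DESeq2, 633 unfiltered and 649 alone, beside 298. For diet they were 2928 without the libraries numbered 2 and 3323 to 4468 with 1 left out in MHCII-low macrophages, beside 7030, and 4244 and 4493 to 4650 in CD11c-negative macrophages, beside 7422. Obese monocyte-derived cells gave 5282, 3053 and 4802 without the libraries numbered 2, beside 8884, 5461 and 7524 (against CD11c-positive, CD11c-negative and MHCII-low macrophages), and 3239 to 3455 with 1 left out against CD11c-negative macrophages. Lean monocyte-derived cells gave 5386 and 6421 alone, beside 10027 and 10551. The difference in diet effect against MHCII-low macrophages gave 134 to 2484, beside 993, and against CD11c-negative macrophages 291 to 3124, beside 1459. Between CD11c-negative and MHCII-low macrophages it gave 123 unfiltered and 2 without obese MHCII-low replicate 1, beside 0.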
